A study of Mus musculus with 9 samples.

Results

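Integrins are receptors that bind a cell to its surrounding matrix. Each is a dimer of an alpha and a beta chain, and the combination sets which ligand is bound. Laminins are secreted trimers of an alpha, a beta and a gamma chain that form the mesh of basement membranes, and several integrins bind them. In bone, osteoblasts and their precursors use such receptors, above all those with the beta-1 chain, to hold on to collagen and fibronectin. Laminin is best known from the basement membranes of vessels, nerves, muscle and fat that lie beside bone cells.

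The genes described here are all those in the count table with a symbol of an integrin alpha chain (Itga followed by a number or letters), an integrin beta chain (Itgb followed by 1 digit) or a laminin chain (Lama, Lamb or Lamc followed by 1 digit). There were 37 of them among 25860 genes: 18 alpha integrins, 8 beta integrins and 11 laminin chains, of which 5 were alpha, 3 beta and 3 gamma chains. The choice used symbols only and no measured value. IRE1KO cells gave 5 RNA-seq libraries and their WT controls 4. Ern1 encodes IRE1, an endoplasmic reticulum enzyme that cuts Xbp1 mRNA for splicing when unfolded proteins build up. Per the labels, all libraries came from Osx1-Cre cells that were sorted from calvaria (skull roof) of newborn mice and grown in medium with 10% serum to 90% confluence. Osx1-Cre is a Cre transgene driven by the osterix (Sp7) promoter, which is active in osteoblast precursors, and each library pooled 3 to 5 pups aged 2 to 4 days. The strain, the Ern1 allele and whether the WT mice differ from the IRE1KO mice in more than Ern1 were not stated in the labels.

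Libraries held 18784636 to 22028075 counts. Levels are given in CPM, a gene's counts scaled to library size, after TMM scaling. At 3 counts, taken as the limit of detection in a library, the level was 0.136 to 0.16 CPM. Ern1 was at 49.8 to 55.8 CPM in IRE1KO, against 41.5 to 54.2 CPM in WT, so the gene's total did not check the genotype labels. Of 7 markers of the osteoblast lineage, 6 were tested and 0 passed, 3 having positive and 3 negative log2 fold changes, with 1 lower at an unadjusted p under 0.05. Runx2 was at 67.9 ± 2.42 CPM in IRE1KO, against 66.9 ± 6.29 CPM in WT, Sp7 at 18.6 ± 2.23 and 19.0 ± 4.89 CPM, and Alpl at 18.7 ± 3.46 and 22.0 ± 2.55 CPM (SD, n = 5 and 4). Markers of mature osteoblasts were low, Ibsp at 0.546 ± 0.390 CPM in IRE1KO, against 2.29 ± 1.29 CPM in WT (log2 fold change -2.06, adjusted p = 0.152, edgeR), and Bglap at 0.100 ± 0.0784 and 0.0387 ± 0.0492 CPM. WT libraries 1 and 4 stood apart. WT library 4 was the highest or the lowest WT library for 75.6% of the 13712 tested genes, and WT library 1 was close to IRE1KO in Schwann cell markers, as described below. Since these are bulk samples, fewer cells of a type and less RNA per cell cannot be told apart.

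Itgb1 was the most abundant of these genes in both genotypes. Bulk levels do not show which cells made these mRNAs. To compare genes with each other, CPM was divided by the length of each gene's exons in kilobases. On this scale Itgb1, the beta chain shared by most matrix-binding integrins, was the most abundant of the 37 genes, with a mean of 405.8 CPM per kilobase over the 9 libraries. Itga5, whose dimer with Itgb1 is the main fibronectin receptor, followed at 108.7 CPM per kilobase, and Itgb5, a partner of the alpha-V chain, at 88.1. The ranges of Itga5 and Itgb5 over libraries overlapped, at 64.5 to 167.5 and 76.8 to 103.7 CPM per kilobase, and with the longest transcript as the length the laminin chain Lamb1, at 132.2, came ahead of Itga5 at 121.4 and Itgb5 at 95.3. Among alpha chains the next were Itga11, a receptor for fibrillar collagen, at 58.3 CPM per kilobase and Itgav, the alpha-V chain, at 48.5. The ranges of these 2 over libraries overlapped, at 35.8 to 76.9 and 40.6 to 61.5 CPM per kilobase, and their order turned round when the longest transcript was taken as the length.

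Laminin mRNA was also abundant. Lamb1 had 77.1 CPM per kilobase, Lamc1 45.0, Lamb2 41.6 and Lama4 33.2, followed by Lama2 at 10.4. These are the chains of the laminins with an alpha-4 or alpha-2 chain, which are typical of mesenchyme, muscle and vessels. The levels of Lamc1 and Lamb2 overlapped between libraries. With the longest transcript as the length, Lama4 moved to 66.3 CPM per kilobase, ahead of Lamc1. The other laminin chains were far lower: Lama5 at 2.42 CPM per kilobase, Lamc3 at 2.16, Lama1 at 0.385, Lama3 at 0.0935 and Lamb3 at 0.0855. Lama3 and Lamb3 encode chains of an epithelial laminin that anchors skin, and the summed level of the 7 epithelial markers was 1.43 to 2.51 CPM in IRE1KO, against 1.80 to 3.66 CPM in WT.

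**Figure D1:**
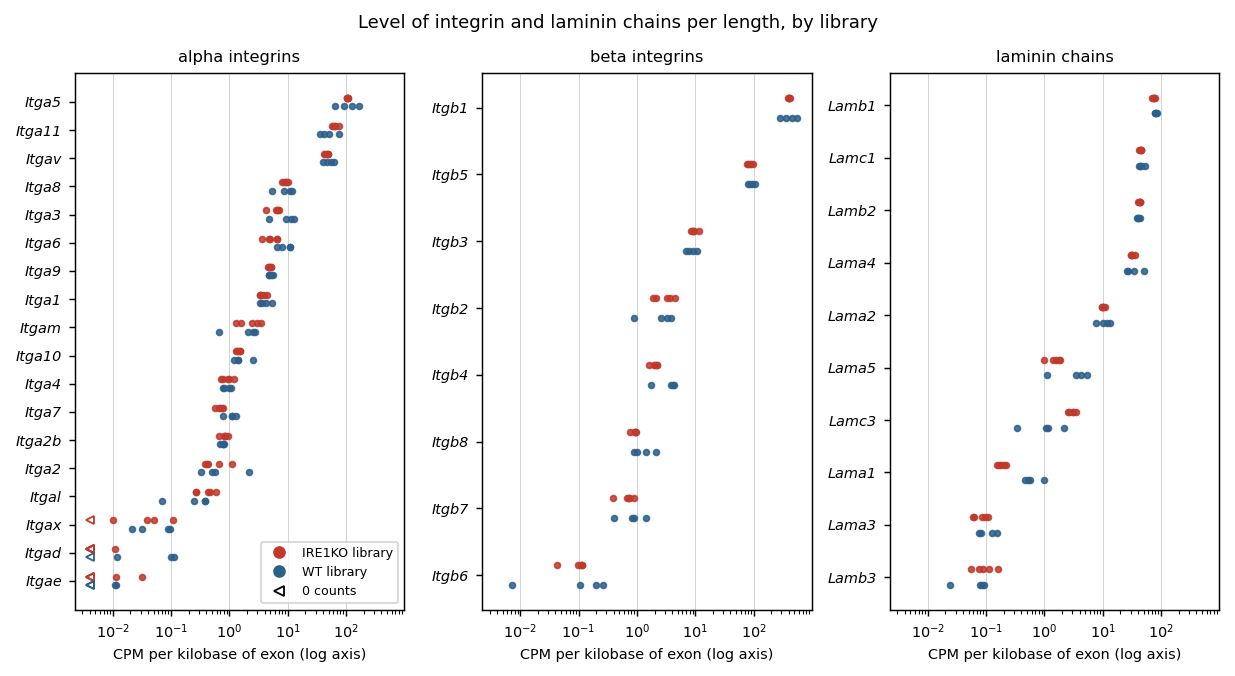
Level of the genes described in the text, in CPM per kilobase of exon (log axis), 1 point per library, with IRE1KO above WT for each gene and open triangles for 0 counts. Itgb1 lies highest with a mean of 405.8 CPM per kilobase, and the genotypes overlap for nearly all genes, Lama1 (lower in IRE1KO) and Lamc3 (higher in IRE1KO) being apart.

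Among the abundant chains, no difference between genotypes passed the test. Itgb1 was at 1712, 1638, 1656, 1583 and 1634 CPM in IRE1KO libraries 1 to 5, against 2251, 1834, 1442 and 1157 CPM in WT libraries 1 to 4. The IRE1KO libraries lay inside the range of the WT libraries, which was far wider. The log2 fold change (IRE1KO over WT) was -0.02 with a 95% interval of -0.39 to 0.34 (adjusted p = 0.962 by the quasi-likelihood test of edgeR, with the Benjamini-Hochberg method over all tested genes), and it was 0.15 without WT library 1.

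Itga5 showed the same arrangement, at 534.9, 507.5, 510.9, 500.4 and 537.1 CPM in IRE1KO, against 826.4, 630.3, 459.7 and 318.4 CPM in WT. Itgav had 504.8, 474.7, 534.8, 452.6 and 534.0 CPM in IRE1KO, against 660.3, 595.0, 496.9 and 435.9 CPM in WT. In Itgb1, Itga5 and Itgav alike, WT library 1 was the highest and WT library 4 the lowest of all 9 libraries. Itga11 ran the other way among the WT libraries: it was at 300.2, 384.3, 296.7, 332.6 and 327.1 CPM in IRE1KO, against 259.2, 183.6, 214.4 and 394.7 CPM in WT. Its log2 fold change was 0.32 ± 0.20 SE and did not pass (adjusted p = 0.459, edgeR). It passed without WT library 4, at 0.58 (adjusted p = 0.0444, edgeR), the adjusted p ranging from 0.0444 to 0.711 over the alternatives.

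The beta chains that pair with alpha-V bind RGD motifs in vitronectin, fibronectin and latent TGF-beta. Itgb5 was at 281.0, 340.1, 307.6, 273.0 and 318.4 CPM in IRE1KO, against 286.0, 305.6, 335.5 and 368.6 CPM in WT. Itgb3, the beta chain of the osteoclast and platelet integrins, was at 53.7, 68.6, 53.6, 49.7 and 55.7 CPM in IRE1KO, against 53.7, 46.9, 41.0 and 63.0 CPM in WT. Both overlapped between genotypes, with log2 fold changes of -0.09 ± 0.088 SE for Itgb5 and 0.14 ± 0.13 SE for Itgb3.

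The abundant laminin chains were steadier. Lamb2 was at 259.0, 247.7, 249.8, 259.5 and 265.2 CPM in IRE1KO, against 236.5, 246.2, 247.1 and 263.9 CPM in WT, and its 95% interval on the log2 scale ran from -0.05 to 0.14. Lamb1 was at 715.3, 747.7, 753.2, 683.6 and 784.5 CPM in IRE1KO, against 840.5, 819.2, 773.7 and 765.7 CPM in WT (log2 fold change -0.12, 95% interval -0.24 to 0.00). Lamc1, the gamma chain of most laminins, was at 358.5, 380.1, 366.4, 345.5 and 373.3 CPM in IRE1KO, against 347.5, 364.6, 379.2 and 438.1 CPM in WT. The intervals of Lamb1, Lamb2 and Lamc1 allowed at most a log2 change of 0.24 in either direction. Lama4 was less even, at 369.5, 426.1, 371.8, 380.4 and 387.0 CPM in IRE1KO, against 311.4, 324.4, 417.1 and 622.6 CPM in WT, WT library 4 being the highest of all.

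Before genotypes were compared, genes with too few counts were set aside by edgeR's filter, which 34 of the 37 genes passed. At an adjusted p under 0.05 over all 13712 tested genes, 1 of the 34 was lower in IRE1KO and 0 were higher, or 2.94% and 0%. Over all tested genes 0.379% were lower and 0.255% higher, 0.634% in all. A single call is too few to set against these shares. At an unadjusted p under 0.05, 7 of the 34 (20.6%) were lower and 1 (2.94%) higher, against 9.36% and 7.14% of all tested genes. The median log2 fold change of the 34 was -0.10, against -0.005 for all tested genes, with 23 negative and 11 positive values. DESeq2, a second count test, called 5 members lower and 1 higher, where it called 2.44% and 1.71% of all tested genes, and limma voom with library weights gave the same counts, against 3.08% and 1.98%. Without WT library 1 edgeR called 3 members lower and 1 higher (5.25% and 3.37% of all tested genes), and without WT library 4 likewise 3 and 1 (1.8% and 1.1%).

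The laminin alpha-1 chain was the member that passed. Lama1 encodes the alpha chain of laminin-111, the classical laminin of the early embryo. It lies on chromosome 17 from 67697259 to 67822647 on the plus strand (GRCm38, ENSMUSG00000032796). It was at 1.75, 2.15, 1.49, 1.96 and 1.58 CPM in IRE1KO libraries 1 to 5, against 5.06, 5.44, 4.55 and 9.62 CPM in WT libraries 1 to 4. All WT libraries lay above all IRE1KO libraries, and WT library 4 was highest. Lama1 thus fell 3.44-fold in IRE1KO (log2 fold change -1.78 ± 0.24 SE, adjusted p = 0.0299, edgeR). Groups that did not overlap were found for 6.93% of all tested genes, 3.28% with IRE1KO lower. The counts behind these levels were 28 to 43 reads in IRE1KO libraries and 90 to 184 in WT libraries.

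The call of Lama1 depended on the libraries used, but its size hardly did. The log2 fold change was -1.90 to -1.49 when any 1 of the 9 libraries was left out. The adjusted p was 0.00671 without WT library 1 and 0.00484 without WT library 4 (edgeR). It was 0.0524 to 0.110 in edgeR without any 1 of the other 7 libraries (each of the IRE1KO libraries and WT libraries 2 and 3), so that the call was then lost. Over all alternatives the adjusted p ranged from 5.53e-08 with DESeq2 to 0.135 with a term for replicate number.

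Lama5 and Lama1 were the alpha chains with the widest differences. Lama5 encodes the alpha chain of laminin-511, common in the basement membranes of epithelia and vessels, and lies on chromosome 2 from 180176373 to 180225859 on the minus strand (GRCm38). It was at 18.0, 15.7, 20.9, 11.4 and 20.1 CPM in IRE1KO, against 48.3, 61.1, 39.5 and 12.8 CPM in WT. WT libraries 1 to 3 lay above all IRE1KO libraries, while WT library 4 was below 4 of the 5. Its log2 fold change was -1.23 ± 0.38 SE and did not pass (adjusted p = 0.174, edgeR), and without WT library 4 it was -1.53 and passed (adjusted p = 0.0173, edgeR; 0.0173 to 0.343 over the alternatives). Lama2, the alpha chain of muscle laminin, was at 165.2 ± 6.64 CPM in IRE1KO, against 175.7 ± 40.4 CPM in WT, and Lama3 at 0.875 ± 0.219 and 1.17 ± 0.389 CPM (SD, n = 5 and 4), neither passing.

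As shares of the summed alpha chains per kilobase, Lama4 made up 72.9% ± 1.59 in IRE1KO and 68.4% ± 11.7 in WT, and Lama2 23.0% ± 1.18 and 22.5% ± 7.81. Lama5 took 3.44% ± 0.799 in IRE1KO and 7.64% ± 4.38 in WT, and Lama1 0.419% ± 0.0541 and 1.26% ± 0.271 (SD, n = 5 and 4 throughout). The WT libraries ranged from 58.4% to 83.9% Lama4 and the IRE1KO libraries from 70.9% to 74.8%. Lama4 and Lama2 together held most of the alpha chain level in every library.

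**Figure D2:**
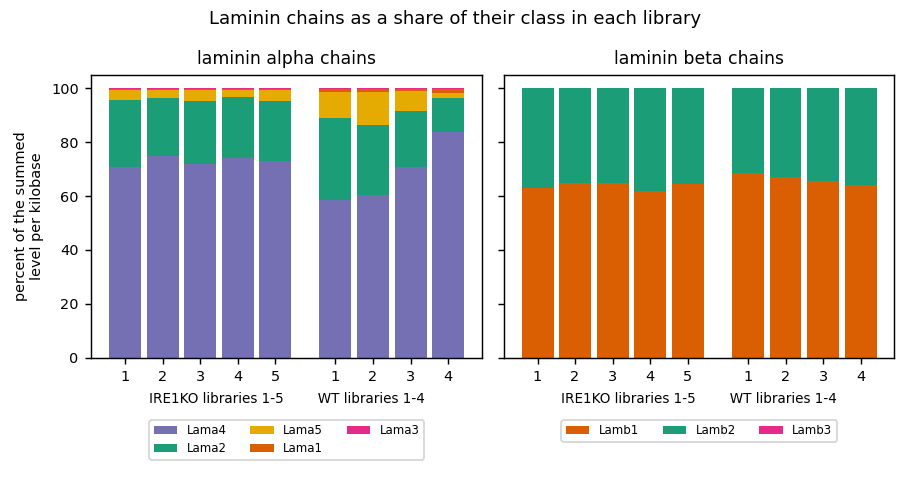
Share of each chain in the summed level per kilobase of the laminin alpha and beta chains, 1 bar per library, with IRE1KO libraries left of WT libraries. Lama4 is the largest alpha share in every library and Lama5 stays at or below 4.27% in IRE1KO and reaches 12.1% in WT library 2.

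Among gamma chains, Lamc3 had the largest positive log2 fold change of the 34 tested genes. It encodes gamma-3, a chain of peripheral nerve, skin and testis laminins, and lies on chromosome 2 from 31887291 to 31946539 (GRCm38). It was at 18.5, 15.2, 16.0, 21.1 and 18.8 CPM in IRE1KO, against 13.1, 6.52, 6.97 and 2.09 CPM in WT. The groups did not overlap, with IRE1KO higher, as for 3.65% of all tested genes. Its log2 fold change of 1.32 ± 0.39 SE did not pass (adjusted p = 0.161, edgeR), and it passed without WT library 1, at 1.78 (adjusted p = 0.0219, edgeR; 0.0198 to 0.380 over the alternatives). Lamb3 had 7 to 22 counts per IRE1KO library and 3 to 12 per WT library. It overlaps 4930570N18Rik on the same strand and Hsd11b1 and G0s2 on the opposite strand. Other members overlap genes too, among them Itga6 (Gm13662 and Gm13663) and Itga1 (Pelo) on the same strand. Lamc3 (Gm13441) and Itga7 (Mettl7b) do so on the opposite strand.

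The 4 chains listed here as laminin-binding integrins all had lower means in IRE1KO, although none passed. These are the alpha-3, alpha-6 and alpha-7 chains, which pair with beta-1, and beta-4, which pairs with alpha-6 in the hemidesmosomes of epithelia and in Schwann cells. All 4 had negative log2 fold changes, from -0.79 to -0.61 with a median of -0.71. Each had an unadjusted p under 0.05 in edgeR, as had 9.36% of all tested genes with IRE1KO lower. Itgb1, with which the alpha chains pair, is not in this list and was at -0.02. The lists of the other integrins had medians of -0.19 (4 collagen-binding alpha chains), -0.071 (4 RGD-binding alpha chains), -0.33 (4 beta chains that pair with alpha-V) and 0.23 (4 tested leukocyte chains). These groups follow textbook ligands and were drawn up with the values known, so they describe the values and test nothing.

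Itga7, the laminin receptor of muscle, was at 5.44, 5.63, 6.11, 4.60 and 6.38 CPM in IRE1KO, against 6.28, 10.3, 8.79 and 8.88 CPM in WT (log2 fold change -0.61 ± 0.15 SE, adjusted p = 0.110, edgeR). Itgb4 was at 13.9, 11.4, 14.3, 15.6 and 15.4 CPM in IRE1KO, against 12, 27.1, 30.5 and 28.6 CPM in WT (log2 fold change -0.79 ± 0.24 SE, adjusted p = 0.170, edgeR). In both, WT libraries 2 to 4 lay above all IRE1KO libraries, and WT library 1 lay among them. Without WT library 1 both passed, Itgb4 at -1.02 (adjusted p = 0.0022, edgeR) and Itga7 at -0.73 (adjusted p = 0.0132, edgeR). Over the alternatives the adjusted p ranged from 0.0022 to 0.393 for Itgb4 and from 0.0132 to 0.295 for Itga7.

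Itga6 was at 44.3, 32.5, 59.8, 43.5 and 57.8 CPM in IRE1KO, against 71.7, 99.1, 98.5 and 58.5 CPM in WT. Here WT library 4 was the low one and lay within the IRE1KO range (log2 fold change -0.79 ± 0.21 SE, adjusted p = 0.133, edgeR). DESeq2 gave an adjusted p of 0.0113 for Itga6, the range over the alternatives being 0.0113 to 0.326. Itga3, the alpha-3 chain of epithelial laminin receptors, was at 36.7, 23.8, 38.8, 35.5 and 41.0 CPM in IRE1KO, against 64.9, 73.5, 53.8 and 27.4 CPM in WT. Again WT libraries 1 to 3 lay above all IRE1KO libraries and WT library 4 did not (log2 fold change -0.64 ± 0.26 SE, adjusted p = 0.264, edgeR). Without WT library 4 Itga3 passed, at -0.86 (adjusted p = 0.041, edgeR; 0.041 to 0.475 over the alternatives).

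**Figure D3:**
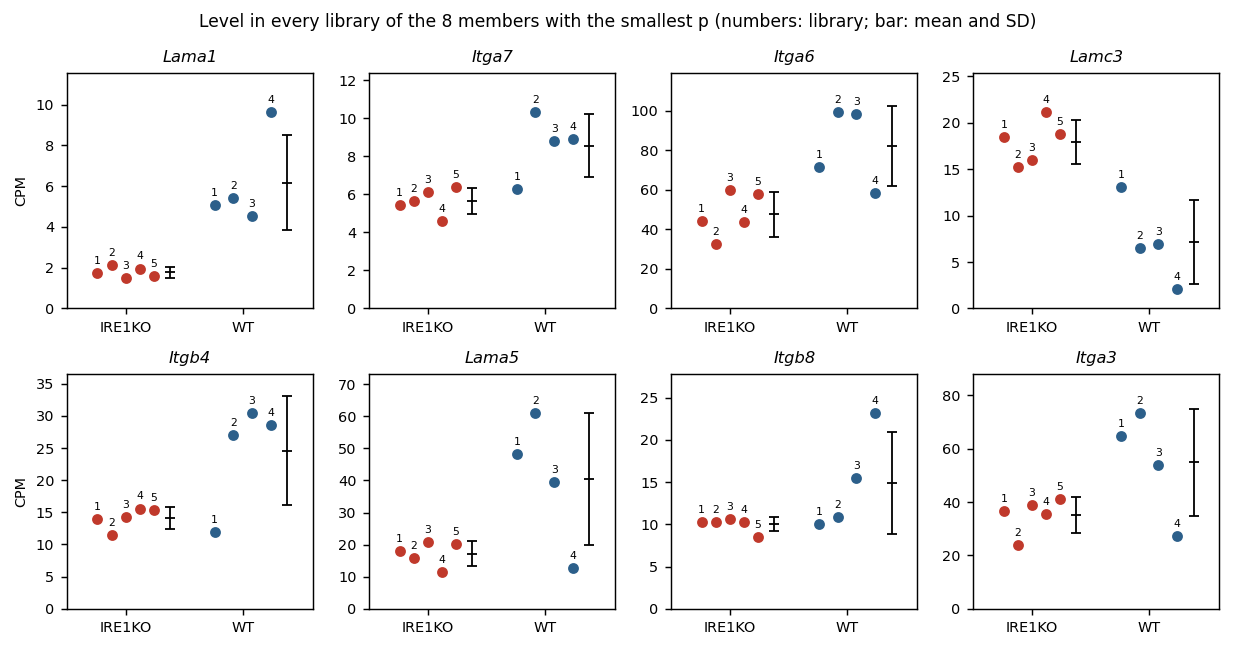
CPM in every library (numbers) of the 8 tested genes with the smallest unadjusted p, with the mean and SD of each group as a bar, IRE1KO left of WT. Lama1 is at 1.49 to 2.15 CPM in IRE1KO, against 4.55 to 9.62 CPM in WT without overlap, whereas WT library 1 joins the IRE1KO values for Itga7, Itgb4 and Itgb8 and WT library 4 does so for Itga6, Lama5 and Itga3.

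Lama5 and Itga3 thus had the same order of WT libraries, though not of IRE1KO libraries, and their promoters are shown for that reason. This order was not particular to them, since Itgb6 and Itgb7 had it too. RefSeq promoter windows on GRCm38.p6, from 250 bases before to 50 after a start, were used for 23 of the 37 genes, with 26 windows. The window of Lama5 is chr2:180225810-180226109 (minus strand) and that of the upstream start of Itga3 is chr11:95076665-95076964 (minus strand). Both are written 5′ to 3′ with the GC box GGGCGG or its reverse complement in capitals.
Lama5: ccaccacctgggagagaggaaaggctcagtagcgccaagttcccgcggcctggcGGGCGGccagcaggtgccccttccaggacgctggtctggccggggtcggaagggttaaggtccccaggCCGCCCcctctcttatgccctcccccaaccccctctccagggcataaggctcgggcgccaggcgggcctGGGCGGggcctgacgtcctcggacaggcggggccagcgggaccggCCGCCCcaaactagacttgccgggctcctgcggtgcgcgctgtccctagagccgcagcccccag
Itga3: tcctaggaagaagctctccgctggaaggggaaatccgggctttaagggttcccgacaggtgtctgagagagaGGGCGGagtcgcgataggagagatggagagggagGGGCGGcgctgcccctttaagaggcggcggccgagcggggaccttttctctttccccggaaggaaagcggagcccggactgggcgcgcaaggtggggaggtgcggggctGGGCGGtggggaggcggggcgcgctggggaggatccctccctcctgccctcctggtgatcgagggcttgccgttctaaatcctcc

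The Lama5 window held 4 GC boxes and was 72.7% G and C, and the Itga3 window held 3 and was 66.7% G and C. A second RefSeq start of Itga3, at chr11:95069149-95069448, held 1 and was 52.3% G and C, where the median of all windows was 52.7%. The windows of Itgb6 and Itgb7, which had the same order of WT libraries, held 0 GC boxes. A GC box on either strand was present in 12 of the 26 windows and in 35.7% of the 32851 RefSeq promoter windows of the same length. The motif TGACGTG, bound by XBP1s, the transcription factor made from Xbp1 mRNA that IRE1 has spliced, was in 0 of the 26 windows on either strand and in 2.01% of all windows. The ER stress element was likewise in 0 of the 26 and in 0.119% of all. TATAAA was in 0 of the 26 and in 13.6% of all. The 26 included no window of Lama1, Lama3, Lamc3, Itga6, Itga7 or Itgb4, so these counts do not cover those genes. The GC boxes in the printed windows of Lama5 and Itga3 did not overlap each other, and the search covered letters in the RefSeq windows only.

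The collagen receptors Itga1, Itga2 and Itga10 and the RGD receptor Itga8 differed between genotypes by less than the SD of the WT libraries. Itga1 was at 68.4 ± 8.30 CPM in IRE1KO, against 77.3 ± 16.8 CPM in WT, and Itga2, its neighbour 21 kilobases away on chromosome 13, at 4.30 ± 2.22 and 6.35 ± 6.05 CPM (SD, n = 5 and 4). Both were highest in WT library 4 among all libraries, at 100.1 and 15.4 CPM. Itga10, a collagen receptor of cartilage, was at 7.31 ± 0.542 CPM in IRE1KO, against 8.46 ± 3.07 CPM in WT, again with its highest value, 13.0 CPM, in WT library 4. Itga8, a receptor for nephronectin and fibronectin, was at 65.9 ± 5.90 CPM in IRE1KO, against 67.4 ± 21.1 CPM in WT. Itga4 and Itga9, which bind VCAM1 and tenascin-C among others, had log2 fold changes of 0.03 and -0.03, with 95% intervals of -0.32 to 0.39 and -0.17 to 0.10.

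Itgb8 and Itgb6 encode beta chains that activate latent TGF-beta. Itgb8 was at 10.3, 10.3, 10.6, 10.3 and 8.54 CPM in IRE1KO, against 10.0, 10.9, 15.5 and 23.2 CPM in WT. WT libraries 3 and 4 were high and the other 2 lay close to the IRE1KO values (log2 fold change -0.57 ± 0.23 SE, adjusted p = 0.247, edgeR). Itgb6, an epithelial chain, was at 0.682 ± 0.216 CPM in IRE1KO, against 1.02 ± 0.787 CPM in WT (SD, n = 5 and 4).

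**Figure D4:**
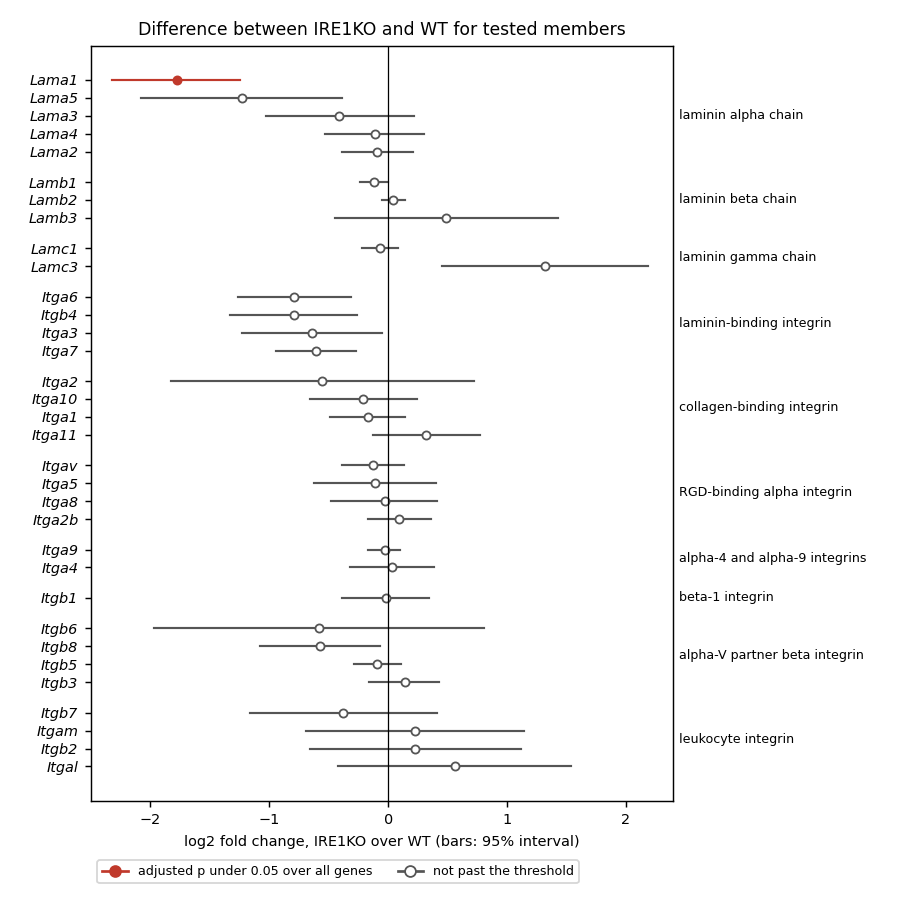
Log2 fold change of IRE1KO over WT for the tested genes described in the text, with 95% intervals, ordered by role, the filled point being past an adjusted p of 0.05. Lama1 is at -1.78, the 4 laminin-binding integrins lie between -0.79 and -0.61, and the interval of Lamc3 runs from 0.45 to 2.19.

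Markers of Schwann cells moved with part of these values. The list held 10 genes, of which 0 were at 0 in every library and 6 were tested. All 6 had negative log2 fold changes (median -2.96), 1 of them past the threshold, the neurotrophin receptor Ngfr, and 3 without overlap between groups, where 0.379% of all tested genes were called lower and 3.28% lay lower without overlap. The summed level of the 10 genes was 14.6, 18.9, 13.4, 12.6 and 14.4 CPM in IRE1KO, against 21.4, 56.6, 63.7 and 90.3 CPM in WT. Itgb4 and Itga7 followed the same split, with WT library 1 beside the IRE1KO libraries, and the part of the Schwann cell markers in their values was not tested. Lama1, like the marker sum, did not overlap between groups and was highest in WT library 4, but in WT library 1, where the markers summed to 21.4 CPM, it was at 5.06 CPM, close to WT libraries 2 and 3. Lama5 and Itga3 were low in WT library 4, where the Schwann cell markers were highest. Markers of fat cells were also lower in IRE1KO: 3 of the 4 tested genes of a list of 6 passed the threshold, Lpl and Fabp4 among them. Their summed level was 43.5 to 53.5 CPM in IRE1KO, against 70.5 to 115.5 CPM in WT, without overlap, as for Lama1, and 0 of the 6 were at 0 in every library, Adipoq averaging 0.0102 CPM in IRE1KO, against 0.229 CPM in WT. The 8 endothelial markers summed to 9.67 to 13 CPM in IRE1KO, against 10.3 to 30.2 CPM in WT, with Tie1 at 0 in every library. All 5 that were tested had negative log2 fold changes (median -0.50), and Pecam1 fell, at 0.174 ± 0.0902 CPM in IRE1KO, against 0.719 ± 0.167 CPM in WT (SD, n = 5 and 4; adjusted p = 0.0497, edgeR). Its IRE1KO values, 0.0531 to 0.291 CPM, lay around the limit of detection. The other tested endothelial markers did not pass, with log2 fold changes from -1.05 for Erg to -0.03 for Kdr. In further lists 0 genes passed. Of 7 tested pericyte and smooth muscle markers, 4 had negative and 3 positive log2 fold changes (median -0.12). Mcam among them was lower without overlap, at 22.9 ± 2.86 CPM in IRE1KO, against 47.3 ± 20.5 CPM in WT (SD; adjusted p = 0.107, edgeR). All 5 tested chondrocyte markers (median -0.31) and both tested skeletal muscle markers (median -0.97) were negative. The part of these markers in the values of Lama1, Lama5 and the laminin-binding integrins was not tested.

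The leukocyte integrins were present at low levels. Itgb2, a leukocyte beta chain, was at 9.95, 11.3, 5.79, 13.9 and 6.52 CPM in IRE1KO, against 7.97, 2.77, 11.6 and 10.1 CPM in WT. Itgam, the alpha-M chain of macrophages, was at 12.4, 14.7, 6.59, 17.3 and 8.06 CPM in IRE1KO, against 10.5, 3.39, 13.8 and 12.8 CPM in WT. The 10 macrophage and osteoclast markers summed to 398.2, 439.0, 310.0, 474.6 and 318.5 CPM in IRE1KO, against 308.6, 203.5, 410.5 and 439.1 CPM in WT, with 0 of the 10 at 0 in every library. Itgb2, Itgam and the marker sum all had their highest value in IRE1KO library 4 and their lowest in WT library 2. Not every marker did: Ctsk, at 214.5 CPM, and Cd14, at 6.81 CPM, were highest in IRE1KO library 2, and Acp5, at 15.1 CPM, in WT library 4. The rest of the list had the extremes of the sum. The part of these markers in the leukocyte integrin values was not tested. Genotypes overlapped in all of them, with log2 fold changes of 0.23 ± 0.39 SE for Itgb2 and 0.23 ± 0.41 SE for Itgam.

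Itgal, the alpha-L chain of lymphocytes and macrophages, was at 2.63 ± 0.901 CPM in IRE1KO, against 1.78 ± 0.974 CPM in WT, and Itgb7, a lymphocyte beta chain, at 1.91 ± 0.523 and 2.48 ± 1.19 CPM (SD, n = 5 and 4). The 3 genes that were too low to test are alpha chains of leukocytes. Itgax had 0 to 10 counts per library in IRE1KO and 2 to 9 in WT, and Itgae 0 to 3 in IRE1KO and 0 to 1 in WT. Itgad, which lies 3.72 kilobases from Itgax on chromosome 7, had 1, 0, 0, 0 and 0 counts in IRE1KO and 0, 10, 9 and 1 in WT, and Cox6a2 overlaps it on the opposite strand.

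**Figure D5:**
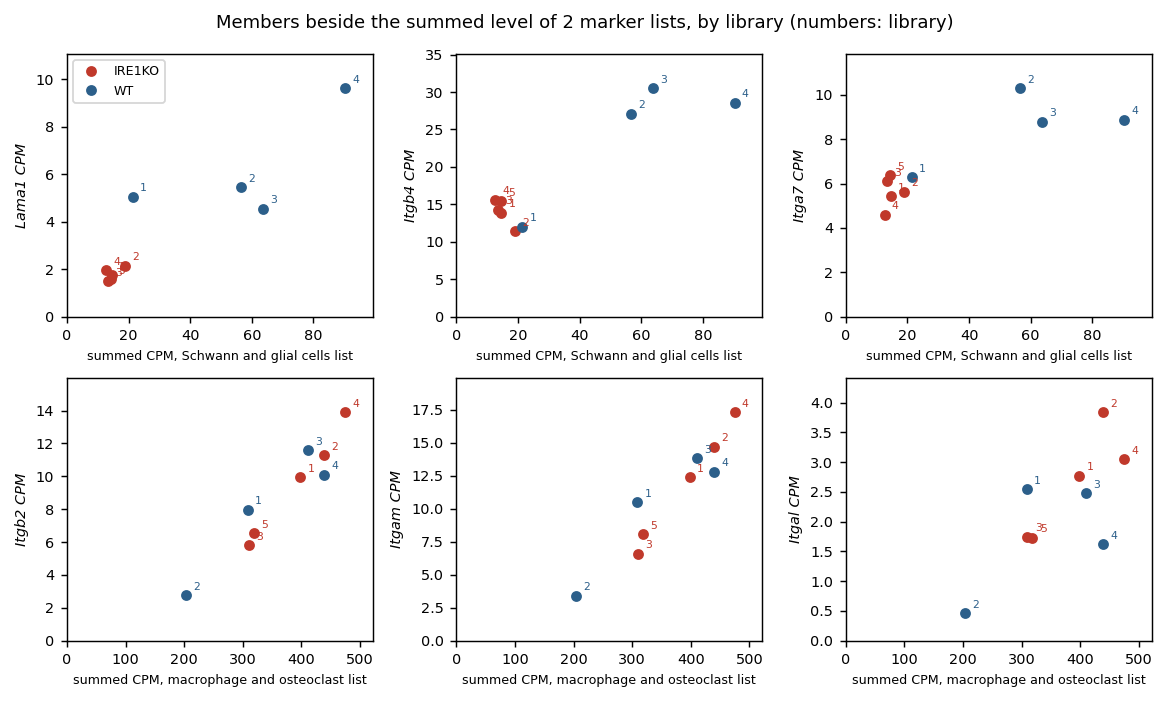
CPM of 6 integrin and laminin genes in each library (numbers) against the summed CPM of the Schwann and glial marker list (top) or the macrophage and osteoclast list (bottom). WT library 1 lies with the IRE1KO libraries for Itgb4 and Itga7 but at 5.06 CPM for Lama1, and Itgb2 and Itgam are lowest in WT library 2 and highest in IRE1KO library 4.

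Of the 37 genes, 5 lie on chromosome 11, which also carries Ern1. Itgb3 lies 1.72 Mb from Ern1, Itga2b 3.92 Mb, Itgb4 9.49 Mb, Itga3 11.32 Mb and Itgae 33.25 Mb, and none of those tested passed. Itga2b, the alpha-IIb chain of platelets and megakaryocytes, was at 4.43 ± 0.545 CPM in IRE1KO, against 4.15 ± 0.268 CPM in WT (SD, n = 5 and 4). Of 5 platelet and megakaryocyte markers, Itga2b itself among them, Gp9 and Gp1ba had 0 counts in every library, while Ppbp was at 24.7 ± 2.37 CPM in IRE1KO, against 15.8 ± 13.1 CPM in WT, and Pf4 at 2.70 ± 0.683 and 2.46 ± 1.36 CPM (SD, n = 5 and 4). The part of platelet RNA in the Itga2b values was not tested.

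WT libraries varied more than IRE1KO libraries in most of these genes. The coefficient of variation was larger in WT for 31 of the 34 tested genes, as for 82.6% of all tested genes, with a median over the 34 of 12.1% in IRE1KO and 34.4% in WT. WT library 4 was the highest or lowest WT library for 27 of the 34. For Itgb1 the coefficient was 2.83% in IRE1KO and 28.5% in WT, while for Lamb2 it was 2.85% and 4.57%.

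The partners of integrins and laminins were taken from 5 lists. Of 16 tested partners of the basement membrane, 1 fell, 0 rose and 15 did not pass, with a median log2 fold change of -0.33, where 0.379% of all tested genes were called lower and 0.255% higher. The gene that fell was Col15a1, a collagen of basement membrane zones, at 7.87 ± 1.18 CPM in IRE1KO, against 34.0 ± 17.2 CPM in WT (SD, n = 5 and 4; adjusted p = 0.0475, edgeR), and in WT library 1 it was at 11.6 CPM. Nid1, which links laminin to type IV collagen, was at 960.9, 961.7, 961.4, 889.2 and 953.2 CPM in IRE1KO, against 1320.5, 1333, 1216 and 995.2 CPM in WT. The groups did not overlap, and the log2 fold change of -0.36 ± 0.084 SE had an adjusted p of 0.0869 in edgeR. The abundant members Sparc, a matrix glycoprotein, and Hspg2, perlecan, had log2 fold changes of 0.25 ± 0.079 and -0.09 ± 0.11 SE.

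None of the other 4 lists had a gene past the threshold, at medians of -0.0065 for 27 tested integrin ligands, -0.059 for 17 other laminin receptors, -0.00049 for 40 adhesion plaque genes and 0.0093 for 12 regulators of integrin activity and traffic. At an unadjusted p under 0.05 in edgeR these lists held 4, 6, 4 and 1 genes, against 16.5% of all tested genes, and over all 5 lists DESeq2 called 9 genes, against 2.44% lower and 1.71% higher of all tested genes. Among ligands, Tnn (tenascin-W), a bone matrix protein, was at 137.2 ± 15.4 CPM in IRE1KO, against 93.5 ± 16.8 CPM in WT, and Col5a1, a fibrillar collagen chain, at 3385 ± 142.6 and 2704 ± 308.1 CPM. Their adjusted p was 0.0946 and 0.107 in edgeR. Type I collagen dominated the list, Col1a1 and Col1a2 having log2 fold changes of 0.19 ± 0.19 and 0.16 ± 0.21 SE.

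Bcam, a receptor for the laminin alpha-5 chain, was at 4.90, 6.40, 4.94, 3.10 and 5.85 CPM in IRE1KO, against 10.1, 13.2, 10.8 and 5.07 CPM in WT. Like Lama5, it was higher in WT libraries 1 to 3 than in all IRE1KO libraries and not in WT library 4 (log2 fold change -0.96 ± 0.28 SE, adjusted p = 0.160, edgeR). Of the other receptors, the syndecan Sdc3 showed a log2 fold change of -0.16 ± 0.051 SE and Rpsa, a ribosomal protein also described as a laminin receptor, 0.11 ± 0.040 SE. In the adhesion plaque, Tln1, which activates integrins from inside the cell, was at 844.5 ± 25.9 CPM in IRE1KO, against 944.7 ± 50.4 CPM in WT, and Kank1 at 31.5 ± 2.90 and 39.3 ± 4.87 CPM (SD, n = 5 and 4). Flna, an actin linker, had a log2 fold change of -0.07 ± 0.11 SE. Slc3a2, which associates with beta integrins, was at 128.8 ± 0.980 CPM in IRE1KO, against 110.6 ± 12.7 CPM in WT (adjusted p = 0.178, edgeR), and Dab2, an endocytic adaptor of integrins, showed a log2 fold change of -0.19 ± 0.095 SE. The tetraspanins Cd9 and Cd81 each had a log2 fold change of 0.02.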

How the data were processed

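The deposited values are raw counts of reads by gene, not normalized. Per the submitters' processing notes the tools and build were STAR, limma and mm10, with no role given for each; per the labels, polyadenylated RNA was made into directional libraries in 1 batch. How reads were counted (tool, annotation release, use of strand) is not given in the sources used here. The fit used edgeR 4.0.16 in R 4.3.3 (filterByExpr, TMM, robust quasi-likelihood test, genotype as sole term). Benjamini-Hochberg adjustment ran over all 13712 tested genes, with a threshold of 0.05. The 95% intervals come from the same fit. Alternatives were median-ratio scaling, no filter, DESeq2 1.42.0, limma 3.58.1 voom with and without library weights, a term for replicate number, and omission of each library. The steps were run on simulated data with the same spread in both groups, so that run does not cover the wider spread of the WT libraries. Positions and exon lengths came by identifier from GENCODE M21 (GRCm38). Members are named except 1 that is not reported here, as is 1 gene of the related lists. Values in every library are given for members past the threshold, the 8 with the smallest p, and the most abundant per length (3 alpha integrins, 3 beta integrins, 4 laminin chains). Of each related list, genes past the threshold, the 2 with the smallest p and the 2 most abundant are named. Giving the library values of Nid1, Bcam, Itgb2, Itgam and Itgad was decided after their values were seen. The members and lists were chosen with earlier results of these data known. The labels call each pool of pups a biological replicate. Of 118 genes named in the related lists, 1 was not matched to the table. Detection limits cover counting error only.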

Additional observations from a re-analysis of the deposited data

Results flagged for a closer look

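In the 34 tested genes each group was searched for a library that stood apart from its nearest neighbour by more than Dixon's critical value, 68 groups in all, and chance gives about 1 in 20. There were 4 such values. WT library 4 stood above the other WT libraries for Itga10, at 13.0 CPM against 6.28 to 7.29 CPM, and for Itga2, at 15.4 CPM against 2.36 to 4.03 CPM. IRE1KO library 2 was low for Itgb6, at 0.307 CPM against 0.69 to 0.82 CPM in the other IRE1KO libraries. IRE1KO library 5 was low for Itgb8, at 8.54 CPM against 10.3 to 10.6 CPM.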

How the results depend on the processing

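The single call among these genes, 1 lower in IRE1KO, was also made with median-ratio scaling and without a filter. It was 5 with DESeq2 and with limma voom with library weights, 0 with limma voom and with a replicate block, and 0 to 3 when 1 library was left out. Genes higher in IRE1KO, 0 in the report, numbered 1 with DESeq2 and with library weights, and 0 to 1 with 1 library left out. Over all genes, 87 were called, against 45 without a filter, 568 with DESeq2, 16 with limma voom, 695 with library weights, 0 with the replicate block and 2 to 1192 with 1 library left out (1192 without WT library 1, 399 without WT library 4). Of the related genes, 1 was called, against 0 without a filter, 9 with DESeq2, 0 with limma voom, 11 with library weights, 0 with the replicate block and 0 to 15 with 1 library left out. At an unadjusted p under 0.05, edgeR with the replicate block held 1596 genes, 5 members lower and 1 higher among them, and limma voom 2185, likewise with 5 and 1. The cause of these shifts was not tested. Same-numbered libraries deviated from their group means with correlations of -0.204 to 0.473, and 2 of the 4 WT libraries correlated best with their own number. So few libraries cannot decide whether the numbers pair them. Of 510 log2 fold changes of 34 genes under 15 alternatives, 28 had the opposite sign, all in genes that did not pass, and 20 genes had none. With limma voom Itga8 was at 0.03, Itgb6 at 0.07 and Itgb1 at 0.02. With library weights Itga4 was at -0.10, Itga9 at 0.02, Itga2 at 0.14, Itgb1 at 0.02 and Lama4 at 0.02. With the replicate block Itga8 was at 0.01 and Itgb1 at 0.02. With 1 library left out the ranges were -0.22 to 0.10 for Itga8, -0.08 to 0.12 for Itga4, -0.33 to 0.07 for Itga10, -0.06 to 0.41 for Itgam, -0.06 to 0.02 for Itga9, -0.91 to 0.37 for Itga2, -0.30 to 0.14 for Itga5, -0.16 to 0.15 for Itgb1, -0.06 to 0.45 for Itgb2, -0.11 to 0.003 for Lamc1, -0.22 to 0.04 for Lama2 and -0.23 to 0.14 for Lama4.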
